A study of Rattus norvegicus with 21 samples.

Results

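The endoplasmic reticulum (ER) and amino acid stress genes described here are Hspa5 (ENSRNOG00000018294), Xbp1 (ENSRNOG00000010298), Ddit3 (ENSRNOG00000006789), Atf3 (ENSRNOG00000003745), Trib3 (ENSRNOG00000007319) and Asns (ENSRNOG00000007546), chosen by gene ID for their roles in the unfolded protein response and the integrated stress response. All 6 were found among the 32883 rat gene IDs of the count tables, and all 6 were among the 13550 genes that passed the filter on low counts. The tables list Ensembl IDs without names, so the symbols are those that the choice of genes gives for its IDs. The samples were 21 messenger RNA libraries of PC12 cells, a rat tumour line of the adrenal medulla that is often used as a model of neurons. The cells had been given vehicle, or Jakyakgamcho-tang (JGT), a herbal medicine of peony and licorice, as a water or an ethanol extract at 4, 20 or 100 µg/mL, here called the low, medium and high dose. Each of the 7 groups had 3 libraries, and the vehicle cells are also labelled as untreated. Neither the solvent nor the time of exposure is stated in the labels. The labels do not tell whether replicates are separate cultures, and p-values therefore cover only library-to-library spread, possibly technical. In such bulk RNA, fewer cells of a kind and less RNA per cell cannot be told apart. The labelled cell type, neuronal, was not analysed here against its markers, because the tables do not name them.

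When unfolded proteins build up in the ER, 3 membrane sensors start the unfolded protein response. ATF6 raises transcription of chaperone genes, IRE1 splices the messenger RNA of Xbp1 into a form that encodes an active transcription factor, and PERK slows translation by phosphorylating the initiation factor eIF2. The same phosphorylation follows amino acid shortage through GCN2, which is why the shared downstream programme is called the integrated stress response. Its transcription factor ATF4 induces Ddit3, Atf3, Trib3 and Asns, while Hspa5 and Xbp1 are classical targets of ATF6. Secretory cells such as chromaffin cells, from which PC12 cells derive, load the ER heavily. The counts here are per gene, so spliced and unspliced Xbp1 were not told apart.

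The promoters are shown because those of Hspa5 and Xbp1 carry the same ER stress element and that of Trib3 a motif of the amino acid response. RefSeq promoter sequences of the GRCr8 assembly were matched by symbol for 5 of the 6 genes, all but Atf3, and the 250 bases before the start were searched on both strands. The ER stress response element (ERSE), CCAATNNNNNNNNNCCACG, was present in 22 of 33469 promoters of that length (0.0657%), Hspa5 and Xbp1 among them. The C/EBP-ATF response element (CARE), TGATGNAA, a type of site that ATF4 can bind, was present in 1139 (3.4%), and the cAMP response element TGACGTCA in 531 (1.59%). The 3 motifs can overlap in principle, and a match is a description of letters, not of binding. The matches are in capitals below, 5′ to 3′ along each gene, and each stretch ends at the base before the start.
Hspa5, chr3:38452766-38453015, plus strand, ERSE from 43 to 25 bases before the start: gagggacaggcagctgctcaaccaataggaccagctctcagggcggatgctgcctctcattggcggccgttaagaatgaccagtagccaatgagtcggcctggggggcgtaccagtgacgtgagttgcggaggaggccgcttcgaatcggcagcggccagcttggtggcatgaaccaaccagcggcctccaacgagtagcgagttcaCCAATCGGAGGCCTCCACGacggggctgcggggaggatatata
Xbp1, chr14:84604373-84604622, plus strand, ERSE from 65 to 47 bases before the start: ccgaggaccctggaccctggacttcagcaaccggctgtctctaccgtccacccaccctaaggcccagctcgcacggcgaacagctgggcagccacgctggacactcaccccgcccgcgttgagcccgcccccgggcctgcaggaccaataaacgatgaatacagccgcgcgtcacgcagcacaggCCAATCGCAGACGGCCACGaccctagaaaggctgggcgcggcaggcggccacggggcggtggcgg
Trib3, chr3:161275534-161275783, minus strand, CARE on the reverse strand from 21 to 14 bases before the start: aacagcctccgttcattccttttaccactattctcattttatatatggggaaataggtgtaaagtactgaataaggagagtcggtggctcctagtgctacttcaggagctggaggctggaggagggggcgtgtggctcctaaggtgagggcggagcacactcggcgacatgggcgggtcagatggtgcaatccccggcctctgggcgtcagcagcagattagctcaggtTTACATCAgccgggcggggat

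The windows of Ddit3 and Asns held none of the 3 motifs. No exact match to the cAMP response element TGACGTCA was found in any of the 5 windows, and variants of it were not searched for.

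Total expected counts were 8344416 to 28420922 per library. Of the ethanol libraries, 3 stand apart: low-dose replicate 1 and medium-dose replicates 2 and 3. The typical gene deviated there from its median over libraries by 0.207 to 0.34 log2 units (median of absolute values), against 0.052 to 0.158 in the other 18, and their totals were 8344416 to 14918515. Their fragment lengths were 178.7 to 202.5 bases, against 205.3 to 240.8 bases in the other 18. Each result below therefore comes from one model of all 21 libraries and again from the other 18, where the medium-dose ethanol group is 1 library whose spread is assumed to be that of the other groups. Changes are log2 differences fitted by edgeR's quasi-likelihood test, ± SE, and a gene is called where p, adjusted by Benjamini-Hochberg over all genes tested, is under 0.05.

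Per length of transcript, the genes covered a wide range of abundance. On the length-scaled TPM unit of the deposited files, Hspa5 stood at 1081 to 2227 over the 21 libraries and was the most abundant of the 6 in each of them. Ddit3 was second throughout at 215.6 to 601.3 TPM, and Asns ranked next at 175.4 to 238.3 TPM. Xbp1 at 111.8 to 159 TPM and Trib3 at 75.1 to 174.4 TPM followed in either order. Atf3 was the scarcest at 7.16 to 18.6 TPM, which rested on 182 to 518 counts per library, while the other 5 genes had at least 833. No library had a fractional count for any of the 6 genes.

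**Figure D1:**
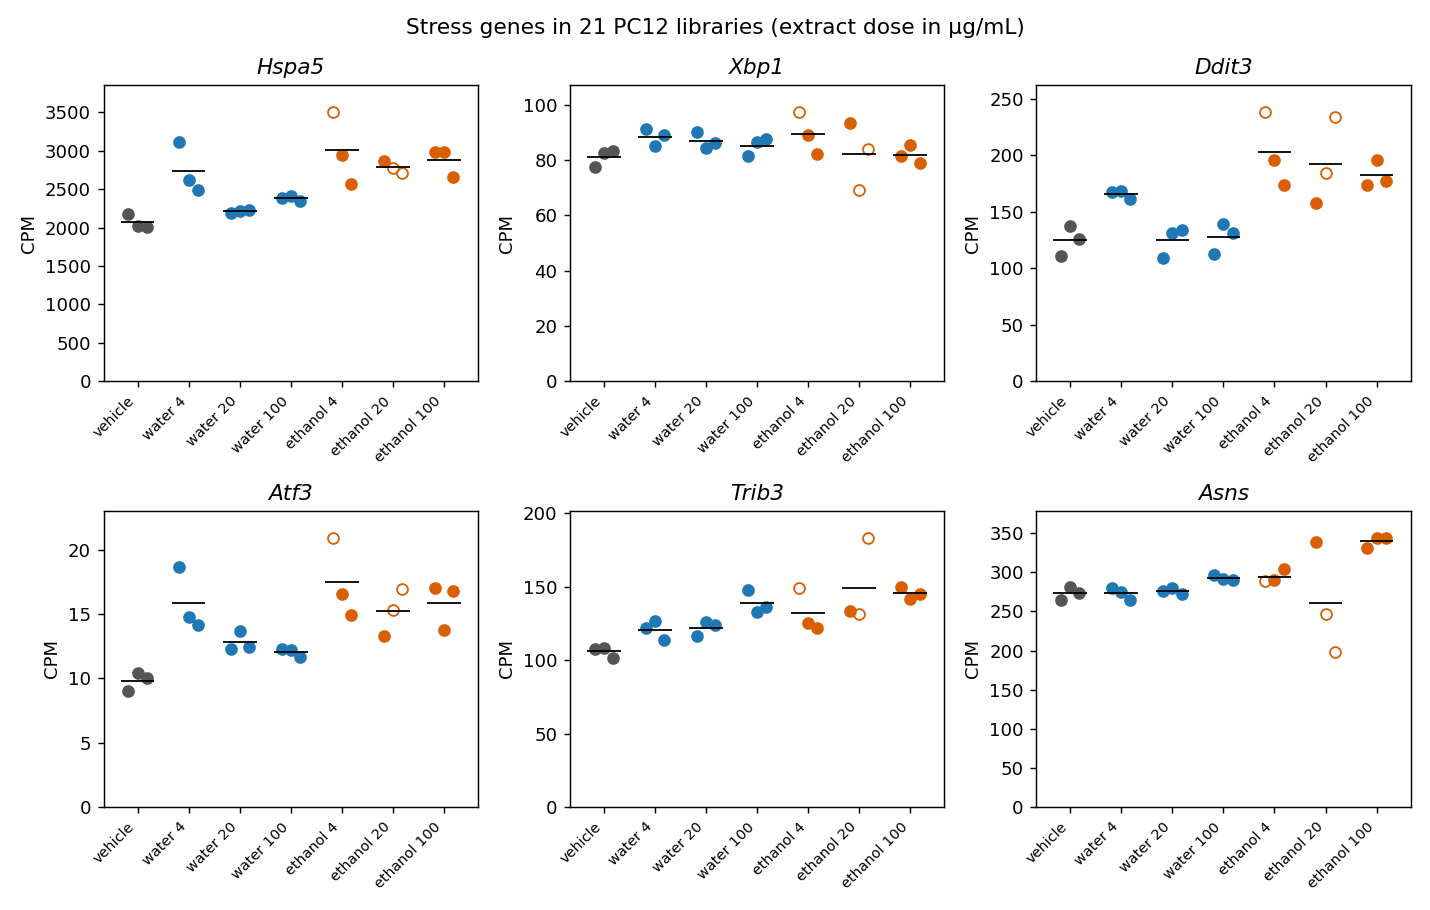
Level of each stress gene in CPM (counts scaled to library totals, vertical axis from 0) in the 7 groups (horizontal axis, extract dose in µg/mL); each point is 1 library, bars are means of 3, and open points are the 3 ethanol libraries that stand apart. Hspa5 lay between 2003 and 2177 CPM in vehicle and between 2568 and 3503 CPM in all 9 ethanol libraries, while for Xbp1 the low and medium water doses lay above vehicle and the other groups overlapped it.

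Hspa5, which encodes the ER chaperone BiP (GRP78), was higher than in vehicle at every dose of the ethanol extract. The vehicle libraries held 2177, 2024 and 2003 CPM, the counts scaled to TMM-normalised library totals. The ethanol libraries held 3503, 2942 and 2568 CPM at the low dose, 2869, 2771 and 2703 CPM at the medium dose and 2986, 2978 and 2662 CPM at the high dose. All 9 ethanol libraries thus lay above all 3 vehicle libraries. From low to high dose the log2 changes were 0.54 ± 0.0954, 0.43 ± 0.0953 and 0.48 ± 0.0953 (edgeR adjusted p = 0.00598, 0.0116 and 0.00772), or 1.45, 1.34 and 1.39-fold. With 18 libraries they were 0.41, 0.48 and 0.48, and all 3 were called. When vehicle replicate 3 was left out, the medium and high doses missed the threshold (edgeR adjusted p = 0.0543 and 0.0518). With only the groups compared in the fit, the low and medium doses did too (edgeR adjusted p = 0.0608 and 0.34). Those fits called 128 of 12964 genes at the low dose and 0 of 12792 at the medium dose.

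The water libraries held 3111, 2616 and 2484 CPM of Hspa5 at the low dose, 2193, 2210 and 2232 CPM at the medium dose and 2379, 2407 and 2351 CPM at the high dose. These also lay above all vehicle libraries, but no dose passed the test with 21 libraries. The low dose came nearest, with a log2 change of 0.404 ± 0.0952 (edgeR adjusted p = 0.0668), and it was called with 18 libraries at 0.403 ± 0.0683 (edgeR adjusted p = 0.00054). In the order of group means, ethanol low, high and medium and water low came first with overlapping libraries, at 3005 ± 471, 2875 ± 184, 2781 ± 83.5 and 2737 ± 330 CPM (SD, n = 3 each). Water high at 2379 ± 27.9, water medium at 2212 ± 19.5 and vehicle at 2068 ± 95.1 CPM (SD, n = 3 each) followed, each without overlap with the group before it. In both low-dose groups replicate 1 was the highest library, and in the ethanol group it is one of those that stand apart. The high minus low difference of Hspa5 in ethanol extract was, with 18 libraries, 0.06 ± 0.0763, against -0.06 ± 0.0951 with 21, so the order of the ethanol doses turned and neither difference passed (edgeR adjusted p = 0.878 and 1).

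Xbp1, the transcription factor that IRE1 activates by splicing, was not called against vehicle in any of the 6 extract groups with 21 libraries. Its group means spanned 81.1 ± 3.14 CPM in vehicle to 89.5 ± 7.66 CPM in the low-dose ethanol group (SD, n = 3 each), and every neighbour in the order of means overlapped. The vehicle libraries held 77.5, 82.6 and 83.2 CPM. The water libraries held 91.3, 85.1 and 89 CPM at the low dose, 90.1, 84.2 and 86.3 CPM at the medium dose and 81.6, 86.4 and 87.5 CPM at the high dose. All low-dose and medium-dose water libraries lay above every vehicle library, while the high dose overlapped vehicle. The ethanol libraries, from low to high dose, held 97.4, 88.9 and 82.1 CPM, 93.3, 69 and 84 CPM, and 81.5, 85.5 and 78.8 CPM, and each dose overlapped vehicle. The log2 changes from vehicle ranged from 0.01 to 0.14, with edgeR adjusted p of 0.437 to 1. At the high dose of ethanol extract the change was 0.01 ± 0.0877. The lowest library was medium-dose ethanol replicate 2 at 69 CPM and the highest was low-dose ethanol replicate 1 at 97.4 CPM, and both are among the 3 that stand apart. With 18 libraries, the single medium-dose ethanol library at 93.3 CPM gave a log2 change of 0.21 ± 0.0728, which was called (edgeR adjusted p = 0.0392).

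Ddit3, which encodes CHOP, a transcription factor of prolonged ER stress that favours cell death, was higher with the ethanol extract at each dose. The vehicle libraries held 111, 138 and 126 CPM. The ethanol libraries held 239, 196 and 174 CPM at the low dose, 158, 184 and 234 CPM at the medium dose and 174, 196 and 177 CPM at the high dose, each above every vehicle library. The log2 changes were 0.70 ± 0.133, 0.62 ± 0.133 and 0.54 ± 0.133 (edgeR adjusted p = 0.00917, 0.01 and 0.0248), or 1.62, 1.54 and 1.46-fold. The 2 highest libraries, low-dose replicate 1 and medium-dose replicate 3, are among those that stand apart. With 18 libraries the low and high doses were called at 0.56 ± 0.105 and 0.54 ± 0.0947, while the single medium-dose library gave 0.34 ± 0.134 (edgeR adjusted p = 0.0843).

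The Ddit3 calls depended on single libraries more than those of Hspa5. At the high dose the adjusted p by edgeR was 0.141 without vehicle replicate 1, 0.0935 without vehicle replicate 3, and 0.0642, 0.128 and 0.0523 without high-dose replicates 1, 2 and 3. At the low dose it was 0.0624 without vehicle replicate 1, 0.0502 without vehicle replicate 3 and 0.0607 without low-dose replicate 1. At the medium dose it was 0.0549 without vehicle replicate 1 and 0.0573 without medium-dose replicate 3. The log2 change stayed between 0.45 and 0.70 in these fits. Ddit3 is the shortest of the 6 genes at 873.8 bases, and fragment lengths were 221.7 to 233.6 bases in vehicle and 178.7 to 231.1 bases in the ethanol groups. With effective length offsets, which scale each gene by the length its fragments can start from, the changes were 0.66, 0.64 and 0.53 from low to high dose and all 3 were called.

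In the water extract libraries, Ddit3 held 167, 168 and 161 CPM at the low dose, 109, 132 and 134 CPM at the medium dose and 113, 139 and 131 CPM at the high dose. The low-dose libraries lay above all vehicle libraries, and the other 2 doses overlapped vehicle. None of the 3 passed with 21 libraries, and the log2 changes were 0.41 ± 0.132, -0.0019 ± 0.132 and 0.03 ± 0.132 (edgeR adjusted p = 0.209, 1 and 1). With 18 libraries the low dose was called at 0.40 ± 0.0942 (edgeR adjusted p = 0.014). In the order of means, the 3 ethanol groups came first with overlapping libraries at 203 ± 32.7, 192 ± 38.8 and 182.4 ± 11.7 CPM, then water low at 165.7 ± 3.72 CPM without overlap on either side (SD, n = 3 each). Water high, vehicle and water medium followed at 127.8 ± 13.5, 125.1 ± 13.2 and 124.9 ± 13.6 CPM (SD, n = 3 each) and overlapped one another.

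Atf3, a transcription factor induced by many stresses that dimerises with other bZIP factors, had the largest fold change of the 6 genes in each of the 3 ethanol groups in the fit of 21 libraries. With 18 libraries its log2 changes were 0.68 ± 0.113, 0.45 ± 0.153 and 0.69 ± 0.102, and the low and high doses were called. The medium dose rests there on 1 library, and its call depended on whether the replicate block was added. At that dose the change of Hspa5 was larger at 0.48. The vehicle libraries held 9.04, 10.4 and 9.99 CPM. The ethanol libraries held 20.9, 16.5 and 14.9 CPM at the low dose, 13.3, 15.3 and 17 CPM at the medium dose and 17, 13.7 and 16.8 CPM at the high dose. Every extract library, water included, lay above every vehicle library. The log2 changes with ethanol extract were 0.81 ± 0.135, 0.63 ± 0.135 and 0.69 ± 0.133 (edgeR adjusted p = 0.00466, 0.00999 and 0.00598), or 1.76, 1.55 and 1.62-fold. At the low and high doses the call was kept in all 17 alternative fits, with adjusted p of up to 0.0392 and 0.0437. The medium dose missed the threshold when vehicle replicate 1 or medium-dose replicate 3 was left out (edgeR adjusted p = 0.0512 and 0.0527).

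The water extract libraries held 18.6, 14.8 and 14.2 CPM of Atf3 at the low dose, 12.3, 13.7 and 12.4 CPM at the medium dose and 12.3, 12.2 and 11.6 CPM at the high dose. Atf3 was called at the low dose, with a log2 change of 0.69 ± 0.132 (edgeR adjusted p = 0.0238), and was the 1 stress gene called with any dose of water extract in the fit of 21 libraries. That call was lost without any 1 of vehicle replicates 1, 2 and 3 (edgeR adjusted p = 0.167, 0.0732 and 0.115) and without low-dose water replicate 1 or 2 (edgeR adjusted p = 0.224 and 0.0519). In that order, those fits called 9 of 13675, 18 of 13673, 7 of 13696, 10 of 13678 and 19 of 13678 genes. The fit of 18 libraries gave 0.70 ± 0.0994 (edgeR adjusted p = 0.000118). The medium and high doses gave 0.38 ± 0.133 and 0.30 ± 0.133 and did not pass (edgeR adjusted p = 1 and 0.738). In the order of means, ethanol low, water low, ethanol high, ethanol medium and water medium stood at 17.4 ± 3.12, 15.9 ± 2.44, 15.8 ± 1.84, 15.2 ± 1.83 and 12.8 ± 0.775 CPM (SD, n = 3 each). Each of these overlapped its neighbour, and water high at 12 ± 0.367 CPM overlapped water medium but not vehicle at 9.8 ± 0.69 CPM (SD, n = 3 each).

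Trib3, a pseudokinase that ATF4 and CHOP induce and that binds the kinase AKT, was higher at the medium and high doses of ethanol extract. Its vehicle libraries held 107.6, 108.5 and 101.7 CPM. The ethanol libraries held 149.4, 125.6 and 122.1 CPM at the low dose, 133.6, 131.4 and 183.4 CPM at the medium dose and 150.1, 141.9 and 145.2 CPM at the high dose. All were above the vehicle libraries, and the highest was medium-dose replicate 3, one of those that stand apart. The log2 changes were 0.32 ± 0.104, 0.497 ± 0.104 and 0.46 ± 0.103 (edgeR adjusted p = 0.104, 0.00906 and 0.0157). With 18 libraries they were 0.22 ± 0.0558, 0.34 ± 0.071 and 0.46 ± 0.0498, and all 3 were called. At the high dose with 21 libraries the adjusted p by edgeR was 0.0614 and 0.0902 without vehicle replicates 1 and 3, and 0.0731 and 0.0534 without high-dose replicates 1 and 2.

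In the water extract libraries Trib3 held 121.6, 126.3 and 114 CPM at the low dose, 116.4, 126.1 and 124 CPM at the medium dose and 147.6, 132.6 and 136.5 CPM at the high dose. All lay above the vehicle libraries, and the high-dose libraries also lay above those of the other 2 water doses. The log2 changes were 0.19 ± 0.103, 0.21 ± 0.103 and 0.39 ± 0.103 and did not pass with 21 libraries (edgeR adjusted p = 0.594, 1 and 0.235). With 18 libraries the low and high doses were called at 0.19 ± 0.0497 and 0.39 ± 0.0497 (edgeR adjusted p = 0.0163 and 4.44e-05). Trib3 was thus higher at the high than at the low dose of water extract by its group means, 138.9 ± 7.75 against 120.6 ± 6.25 CPM (SD, n = 3 each), the opposite order to Hspa5, Ddit3 and Atf3. In the order of means, ethanol medium and high, water high, ethanol low, water medium and water low stood at 149.5 ± 29.4, 145.7 ± 4.1, 138.9 ± 7.75, 132.4 ± 14.8, 122.2 ± 5.09 and 120.6 ± 6.25 CPM, each overlapping the next, and vehicle stood below all of them at 105.9 ± 3.72 CPM (SD, n = 3 each).

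Asns, the enzyme that makes asparagine from aspartate and glutamine and a reference gene of the amino acid response, stood at 264.5, 280.5 and 273.6 CPM in vehicle and at 330.6, 344.2 and 343.9 CPM at the high dose of ethanol extract. The high-dose ethanol libraries lay above the vehicle libraries and above the next group in the order of means. The log2 change was 0.32 ± 0.115 and did not pass with 21 libraries (edgeR adjusted p = 0.148), whereas 18 libraries gave 0.32 ± 0.0418 (edgeR adjusted p = 7.97e-06). The medium-dose ethanol libraries held 338.3, 247.1 and 198.4 CPM, the first above every vehicle library and the others below. Their log2 change was -0.06 ± 0.115 with all 3, 0.31 ± 0.0586 with replicate 1 alone (18 libraries, edgeR adjusted p = 0.000306) and -0.29 without replicate 1 (edgeR adjusted p = 0.00176). The direction of Asns at the medium dose therefore depended on which libraries were kept. Without replicate 1, 6082 of 13698 genes were called against vehicle.

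The other Asns groups lay close together. Low-dose ethanol at 294.1 ± 8.45 and high-dose water at 292.9 ± 3.51 CPM overlapped each other and lay above all vehicle libraries, and water medium, water low and vehicle stood at 276.4 ± 3.7, 273.4 ± 8.13 and 272.9 ± 8.03 CPM (SD, n = 3 each) and overlapped. With the water extract, log2 changes from vehicle were 0.0026, 0.02 and 0.102 from low to high dose (edgeR adjusted p = 1 at each). Low-dose ethanol gave 0.11 ± 0.115 (edgeR adjusted p = 0.681).

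**Figure D2:**
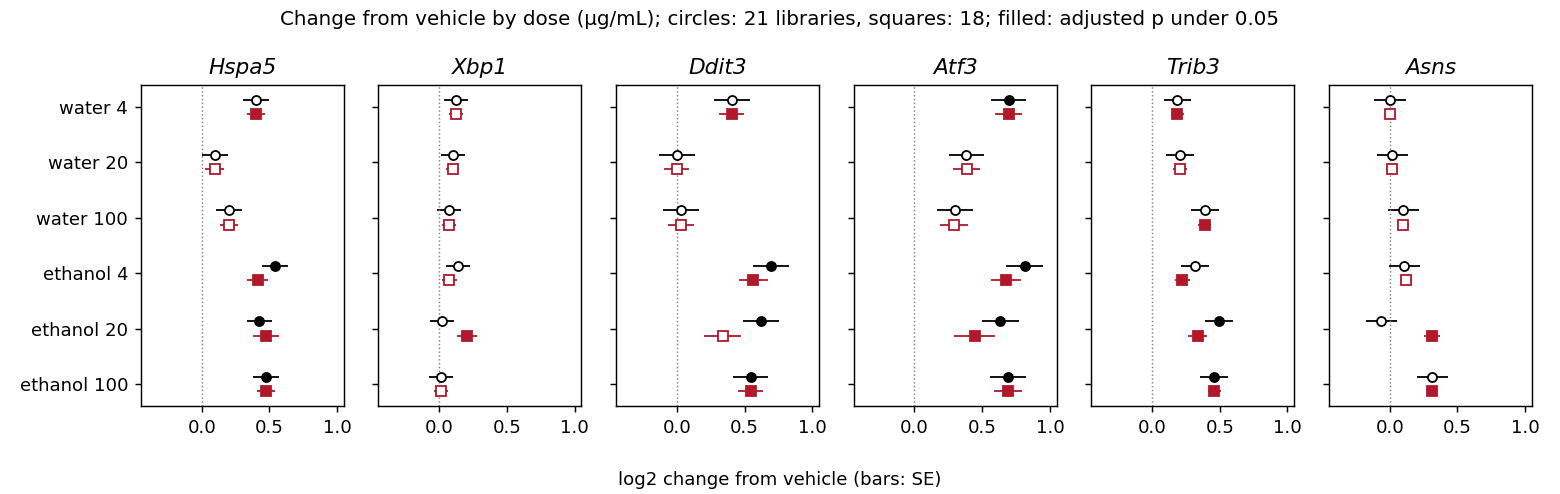
Log2 change from vehicle (horizontal axis, bars are SE) of each stress gene for each extract and dose in µg/mL (vertical axis); circles are fits of 21 libraries, squares of the 18 that do not stand apart, and filled symbols passed at an adjusted p under 0.05. At the high ethanol dose the circles lie at 0.48 for Hspa5, 0.54 for Ddit3, 0.69 for Atf3 and 0.46 for Trib3, and at 0.01 for Xbp1.

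Counted over the 6 genes, the ethanol extract gave 3 called at the low dose (Hspa5, Ddit3 and Atf3), and 4 at each of the higher doses (those and Trib3), all higher than in vehicle. At the medium dose all 4 missed the threshold when only the groups compared were fitted (edgeR adjusted p = 0.34 for each). That fit called 0 of 12792 genes. The share of all genes called was 2.59, 13.3 and 3.92% at these doses. The median log2 change of the 6 genes was 0.43, 0.46 and 0.47, against medians of 0.0042, -0.00063 and 0.0032 over all 13550 genes tested. With 18 libraries the counts were 4, 5 and 5, beside 9.7, 24.9 and 22.7% of all genes. The water extract gave 1 gene at the low dose (Atf3) and 0 at the medium and high doses, beside 0.369, 0.00738 and 0.0664% of all genes. At an unadjusted p under 0.05 edgeR gave 3, 1 and 3 of the 6 genes at these doses, beside 9.92, 3.13 and 6.58% of all genes. DESeq2 called 2, 0 and 0, beside 1.78, 0.059 and 0.509% of all genes. With limma-voom 1, 0 and 0 were called, beside 0.605% of all genes at the low dose and 1 and 10 of 13550 genes at the others. Median log2 changes of the 6 genes were 0.296, 0.098 and 0.15 from low to high water dose. With 18 libraries 4, 0 and 1 were called, beside 10.5, 0.283 and 4.33% of all genes. The 6 comparisons share the 3 vehicle libraries, and no direct overlap between them is drawn here.

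Groups that did not overlap vehicle were counted as well. Every library lay above every vehicle library for 5, 4 and 5 of the 6 genes with the ethanol extract from low to high dose, beside 15.6, 12 and 18.7% of all genes tested. With the water extract this held for 5, 4 and 4 of the 6 genes, beside 15.9, 8.71 and 11.9% of all genes. No stress gene had all libraries of an extract group below vehicle.

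The extracts were compared directly at equal doses, without vehicle libraries. Averaged over the 3 doses, Hspa5, Ddit3 and Atf3 were higher with the ethanol than with the water extract. The log2 differences were 0.25 ± 0.0549 for Hspa5, 0.47 ± 0.0765 for Ddit3 and 0.25 ± 0.076 for Atf3 (edgeR adjusted p = 0.0123, 0.00239 and 0.0425), beside 9.28% of all genes called. For Hspa5 and Ddit3 the call was kept in all 29 alternative fits, with adjusted p of up to 0.0324 and 0.00736. For Atf3 it was lost in 19 of the 29, among them the fit of 18 libraries at 0.15 ± 0.0697 (edgeR adjusted p = 0.142). Leaving out any 1 of 13 of the 18 extract libraries lost it too, with adjusted p of up to 0.0903. Trib3 and Asns gave 0.16 ± 0.0595 and 0.08 ± 0.0666, and Xbp1 -0.04 ± 0.0507 (edgeR adjusted p = 0.083, 0.451 and 0.629). With 18 libraries Hspa5, Ddit3 and Asns were called, beside 20.9% of all genes, and the difference of Asns was 0.21 ± 0.0285 (edgeR adjusted p = 1.18e-05). For Trib3 the averaged difference was called without medium-dose ethanol replicate 1 (0.19, edgeR adjusted p = 0.0107) or 2 (0.19, edgeR adjusted p = 0.035). Those 2 fits called 4929 of 13698 and 1681 of 13645 genes.

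**Figure D3:**
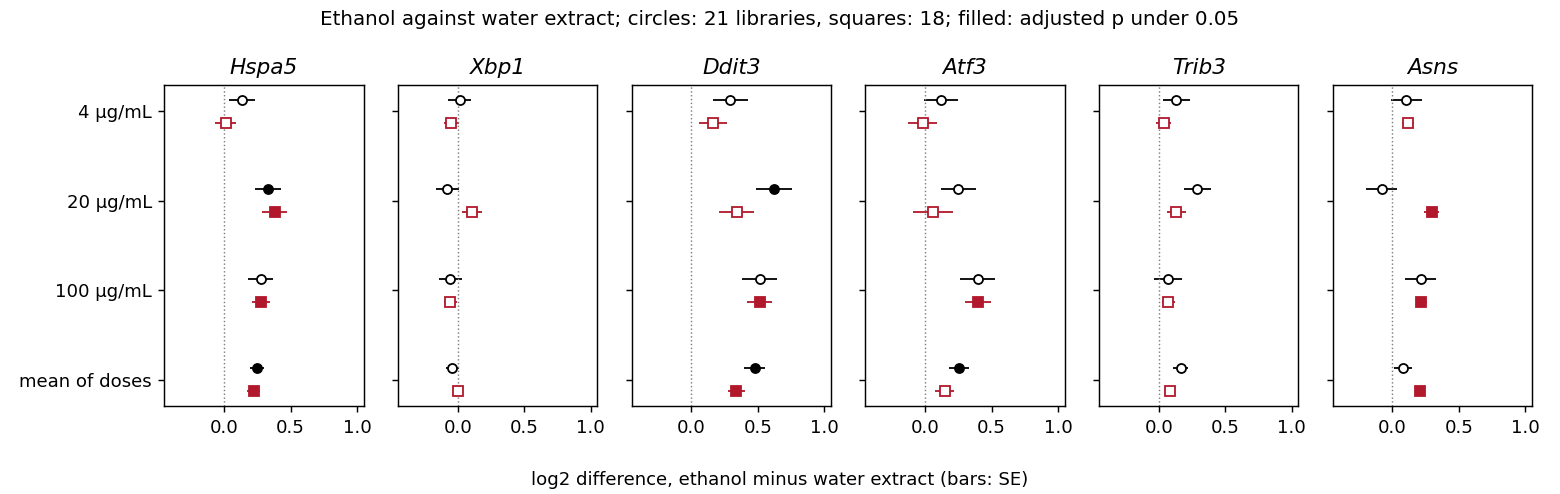
Log2 difference between ethanol and water extract (horizontal axis, bars are SE) of each stress gene at each dose and averaged over doses (vertical axis); circles are fits of 21 libraries, squares of 18, and filled symbols passed at an adjusted p under 0.05. Ddit3 is furthest from 0 at 0.62 for the medium dose, and Xbp1 lies between -0.08 and 0.01 in the fits of 21 libraries.

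At the low dose the extracts did not differ by the test for any of the 6 genes, beside 0.0221% of all genes called. Ddit3 was the largest at 0.29 ± 0.132 (edgeR adjusted p = 0.904), the 1 gene with an unadjusted p under 0.05 (5.35% of all genes). DESeq2 and limma-voom called 0 of the 6 as well, beside 29 and 4 of 13550 genes. With 18 libraries 0 were again called, beside 0.305% of all genes, and the log2 difference of Hspa5 was 0.01 ± 0.0762. At the medium dose Hspa5 and Ddit3 were higher with ethanol extract by 0.33 ± 0.0952 and 0.62 ± 0.133 (edgeR adjusted p = 0.0436 and 0.0196), beside 7.34% of all genes. Both calls were lost without any 1 of the 3 medium-dose water libraries, with edgeR adjusted p of 0.106 to 0.122 for Hspa5 and 0.0666 to 0.084 for Ddit3. Those 3 fits called only 2 of 13670, 4 of 13677 and 1 of 13676 genes. Both calls were also lost without medium-dose ethanol replicate 3 (edgeR adjusted p = 0.14 and 0.105), where 27 of 13662 genes were called. That of Hspa5 was lost without replicate 2 too (edgeR adjusted p = 0.0565). With only the groups compared neither passed (edgeR adjusted p = 0.501 for both), and that fit called 0 of 12926 genes. Without a filter on low counts Hspa5 did not pass (edgeR adjusted p = 0.0608). With 18 libraries Ddit3 did not pass either, at 0.34 ± 0.134 (edgeR adjusted p = 0.1). With 18 libraries Hspa5 and Asns were called at the medium dose, at 0.38 ± 0.0945 and 0.296 ± 0.0586, beside 18% of all genes. Asns was -0.08 ± 0.115 with 21 libraries and -0.31 without medium-dose ethanol replicate 1 (edgeR adjusted p = 0.00104). Trib3 at the medium dose was called without ethanol replicate 1 (0.37, edgeR adjusted p = 0.00585) or 2 (0.38, edgeR adjusted p = 0.0356). Leaving out replicate 1 keeps only replicates 2 and 3, which stand apart, and 6005 of 13698 genes were then called. Without replicate 2, 1246 of 13645 genes were called.

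At the high dose 0 of the 6 genes were called between extracts with 21 libraries, beside 0.0443% of all genes, while 3 had an unadjusted p under 0.05 (10.4% of all genes). DESeq2 called 1 (Ddit3, beside 1.16% of all genes) and limma-voom 0, beside 8 of 13550 genes. The log2 differences were 0.27 ± 0.0952 for Hspa5, 0.51 ± 0.132 for Ddit3, 0.395 ± 0.131 for Atf3 and 0.21 ± 0.115 for Asns (edgeR adjusted p = 0.292, 0.15, 0.259 and 0.543). For these 4 genes every ethanol library lay above every water library at this dose, as was so for 13.7% of all genes. None of the 3 libraries that stand apart belongs to either high-dose group, and in the fit of 18 libraries all 4 genes were called with similar differences of 0.28, 0.51, 0.398 and 0.22, beside 11.3% of all genes. Trib3, the gene that was also higher at the high dose of water extract in that fit, differed by 0.07 ± 0.0493 between extracts (edgeR adjusted p = 0.364), and Xbp1 by -0.06 ± 0.0507 (edgeR adjusted p = 0.524).

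Within each extract, the high dose was compared with the low dose. With 21 libraries edgeR called 0 of the 6 genes in either extract, beside 0% of all genes for water and 0.00738% for ethanol. DESeq2 also called 0 of the 6, beside 11 of 13550 genes for water and 25 for ethanol. So did limma-voom, beside 0 and 2 genes. At an unadjusted p under 0.05, 3 genes passed for water and 0 for ethanol, beside 3.65 and 4.8% of all genes. In the water extract Hspa5, Ddit3 and Atf3 had negative differences of -0.20 ± 0.0951, -0.37 ± 0.132 and -0.398 ± 0.13, and Trib3 a positive one of 0.20 ± 0.103 (edgeR adjusted p = 1 for each). With 18 libraries these were -0.20, -0.37, -0.40 and 0.20 with edgeR adjusted p of 0.182, 0.112, 0.063 and 0.0668, and 0 were called, beside 0.349% of all genes. For ethanol with 18 libraries Trib3 was higher at the high dose by 0.24 ± 0.0559 (edgeR adjusted p = 0.048), beside 0.596% of all genes, and Asns gave 0.19 ± 0.0469 (edgeR adjusted p = 0.0512). Same-numbered libraries of these 2 ethanol groups deviated together, with correlations of 0.159 to 0.248 over 3 pairs. The labels do not say what a number marks, so the pairing is assumed. With the replicate block as well, the Trib3 call was lost at 0.23 ± 0.0552 (edgeR adjusted p = 0.0701) and Asns was called at 0.197 ± 0.0458 (edgeR adjusted p = 0.0479). With fragment length as a covariate neither was called (edgeR adjusted p = 0.0525 and 0.198). The difference of the dose effect between extracts gave 0 of the 6 genes and 0% of all genes by edgeR with 21 libraries. At an unadjusted p under 0.05 it gave 0 stress genes, beside 3.14% of all genes. DESeq2 and limma-voom also called 0 of the 6, beside 4 and 0 of 13550 genes. With 18 libraries the lowest edgeR adjusted p among the 6 genes was 0.498, for Atf3 at 0.42 ± 0.146.

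The low and medium doses of water extract were compared after their values had been seen. Every low-dose library lay above every medium-dose library for Hspa5, Ddit3 and Atf3, as was so for 9.85% of all genes. The log2 differences were 0.31 ± 0.0952, 0.41 ± 0.132 and 0.31 ± 0.129, none of which passed with 21 libraries (edgeR adjusted p = 1 for each, beside 0% of all genes called). These 3 genes had an unadjusted p under 0.05, beside 3.67% of all genes. DESeq2 and limma-voom called 0 of the 6, beside 12 and 0 of 13550 genes. With 18 libraries Hspa5 was called at 0.31 ± 0.0682 (edgeR adjusted p = 0.0325), beside 0.829% of all genes, but not with fragment length as a covariate (edgeR adjusted p = 0.0579). Ddit3 gave 0.41 ± 0.0938 (edgeR adjusted p = 0.0631). Xbp1, Trib3 and Asns differed by 0.03, -0.02 and -0.02 between these doses.

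How the genes varied together was measured over the 21 libraries as the correlation of log2 CPM, for 15 pairs with p-values adjusted over them. The pairs among Hspa5, Ddit3, Atf3 and Trib3 were the 6 that passed. Hspa5 and Ddit3 had r = 0.815 and rho = 0.817 (permutation p = 3e-05 and 4e-05, adjusted p = 0.00015 and 0.0002), Hspa5 and Atf3 r = 0.868 and rho = 0.864 (permutation p = 1e-05 for both, the smallest that 100000 resamples can give, adjusted p = 0.00015 for both). Ddit3 and Atf3 had r = 0.822 and rho = 0.829 (permutation p = 2e-05 for both, adjusted p = 0.00015 for both). Without the 2 libraries farthest from the median of the first gene, these 3 values of r were 0.763, 0.803 and 0.799. With 18 libraries they were 0.806, 0.83 and 0.762 (permutation adjusted p = 0.000525, 0.000525 and 0.0011). The pooled values mix differences between groups with those within groups. On deviations from the group means r was 0.272 for Hspa5 and Ddit3, 0.537 for Hspa5 and Atf3 and 0.564 for Ddit3 and Atf3 (permutation adjusted p = 0.32, 0.0272 and 0.0272), so the first pair did not pass within groups. Trib3 had r = 0.583, 0.588 and 0.606 and rho = 0.603, 0.514 and 0.517 with Hspa5, Ddit3 and Atf3 (permutation adjusted p = 0.0129 for each r, and 0.0176, 0.047 and 0.047 for rho). These values of r were 0.463, 0.535 and 0.509 without the 2 farthest libraries. With 18 libraries they were 0.599, 0.366 and 0.531 (permutation adjusted p = 0.0237, 0.204 and 0.044), so Ddit3 and Trib3 no longer passed. On deviations from the group means of 21 libraries they were 0.294, 0.631 and 0.611 (permutation adjusted p = 0.285, 0.0192 and 0.0192), so Hspa5 and Trib3 did not pass within groups.

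**Figure D4:**
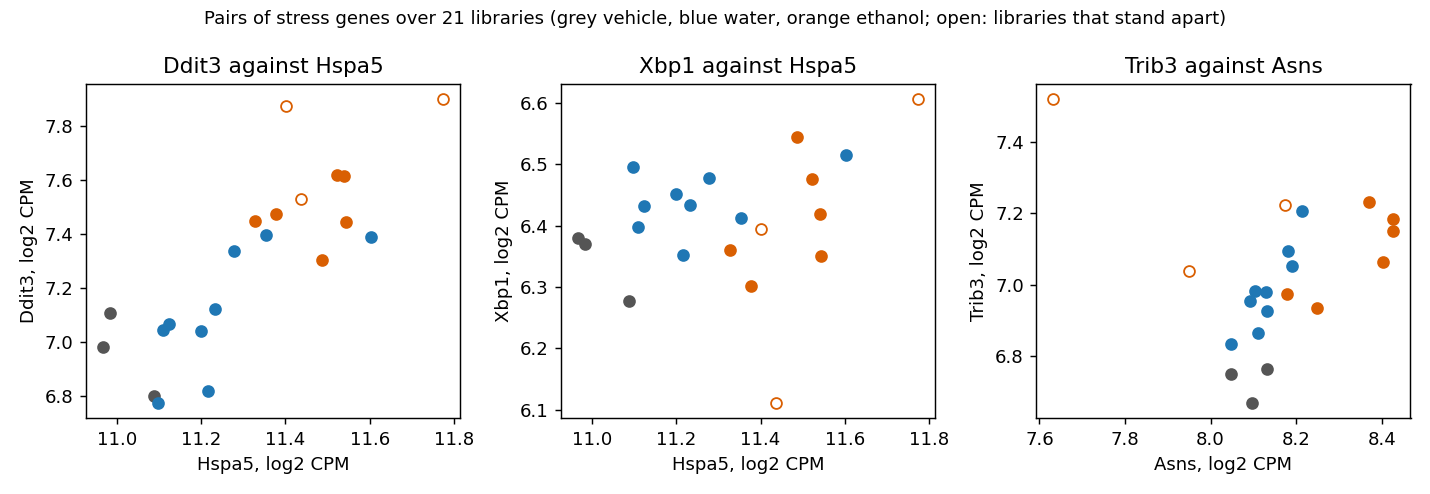
Level of a stress gene against another in each of the 21 libraries, both in log2 CPM; grey is vehicle, blue water extract, orange ethanol extract, and open points are the 3 ethanol libraries that stand apart. Ddit3 is higher where Hspa5 is higher (r = 0.815), Xbp1 did not pass with Hspa5 (r = 0.29), and r of Trib3 and Asns is -0.0427 over 21 libraries and 0.748 over 18.

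Xbp1 passed with none of the other 5 genes. Its r with Hspa5 was 0.29 and its rho 0.274 (permutation p = 0.199 and 0.225, adjusted p = 0.427 and 0.374), and r was 0.0904 without the 2 farthest libraries, 0.326 with 18 libraries and 0.434 on deviations from the group means (permutation adjusted p = 0.113). Trib3 and Asns, both targets of ATF4, had r = -0.0427 and rho = 0.427 over 21 libraries (permutation p = 0.852 and 0.0537, adjusted p = 0.854 and 0.115), and r was 0.605 without the 2 farthest libraries. Over the 18 libraries r was 0.748 and rho 0.761 (permutation p = 0.0004 for both, adjusted p = 0.0015 for both), and 0.724 without the 2 farthest of these. On deviations from the group means of all 21 libraries r was -0.615 (permutation adjusted p = 0.0272). The relation of Trib3 and Asns thus passed as positive with 18 libraries and did not pass when pooled over 21. On deviations within the groups of all 21 libraries r was negative, but its p is too small for the reason given above. A negative relation within groups is therefore not established. Among the libraries that stand apart, medium-dose replicate 3 had the highest Trib3 and the lowest Asns of all 21, at 183.4 and 198.4 CPM.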

How the data were processed

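Per the labels' protocols, messenger RNA libraries were made with a directional kit. The deposited files give expected counts per gene and TPM, scaled to effective length, beside other columns with gene and effective lengths in bases, per the file headers. The submitters' processing notes name RSEM 1.3.3, while genome build, annotation, strand counting and the version of STAR are not given in the sources used here. A RefSeq table of 47357 rat genes (GRCr8) paired with 0 of the 32883 IDs, so the wider lists of stress genes and the cell type markers that had been set by symbol could not be applied, and no gene with a similar pattern was named. All 6 stress genes are reported in every comparison. These genes, lists and tests were chosen with earlier results of these data known.

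Expected counts were rounded and tested with edgeR 4.0.16 in R 4.3.3 (quasi-likelihood F test, robust fit, TMM, default filter on low counts). One coefficient per group was fitted to 21 libraries for 13 comparisons, and 1 comparison was added after the values were seen. SE was the absolute log2 change over the square root of F. Log2 CPM for correlations used a prior count of 2, with two-sided permutation tests. Fragment length was taken per library as the median difference between the length columns, for genes no shorter than 1000 bases. Raw counts of libraries of the same group differed by a chi-square of 2.96 to 140.2 per degree of freedom over 21 pairs, so none were merged. Alternatives were limma-voom (limma 3.58.1), DESeq2 1.42.0 and its size factors, no filter or 1 CPM in 3 libraries, a block for the replicate number, offsets for effective length, only the groups compared, 18 libraries alone, with fragment length as covariate or with the block, and leaving out each library. Same-numbered libraries deviated together (every pair's correlation above 0.1) in 1 of 12 comparisons of 2 groups, high against low dose of ethanol extract (0.159 to 0.248 over 3 pairs). There the pairing comes from this check, since the labels do not say what a number marks.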

Additional observations from a re-analysis of the deposited data

How the results depend on the processing

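Across 1536 refits of a stress gene in a comparison, 1402 kept the side of the threshold, 64 lost a call, 64 gained one and 6 reversed. In 53 of the 1402 the sign differed while neither fit called the gene. The reversals were all Asns at the medium dose: against vehicle the log2 change was 0.31 with 18 libraries, 0.32 with fragment length as well and 0.32 with the replicate block as well, and against water extract 0.296, 0.31 and 0.30. The number of stress genes called moved by more than 1.5 times, or from or to 0, as follows. Low-dose water against vehicle gave 2 with DESeq2 (beside 241 of 13550 genes) and with the replicate block (73 of 13550 genes). It gave 4 with only the groups compared (1630 of 13060 genes), with 18 libraries (1444 of 13759 genes) and with fragment length added (1380 of 13759 genes). Low-dose water also gave 4 with 18 libraries and the block. Medium-dose water gave 2 with only the groups compared, beside 127 of 13048 genes. High-dose water gave 1 with only the groups compared (427 of 13061 genes), with 18 libraries (596 of 13759 genes) and with fragment length added (443 of 13759 genes). It gave 2 with 18 libraries and the block. For fits of 18 libraries with the block, the share of all genes called is not given here, so these counts cannot be weighed against it. Medium-dose ethanol gave 0 with only the groups compared, beside 0 of 12792 genes. Between extracts, the medium dose gave 1 without a filter (600 of 19884 genes) and 0 with only the groups compared (0 of 12926 genes). The high dose between extracts gave 1 with DESeq2 (157 of 13550 genes). It gave 4 with only the groups compared (780 of 12999 genes) and in each fit of 18 libraries. High against low dose gave 1 for water with 18 libraries and the block, and for ethanol 1 with 18 libraries (Trib3) and 1 with the block added (Asns). Low against medium water gave 1 with only the groups compared (117 of 13204 genes), 1 with 18 libraries and 2 with the block added. Smaller moves, among others, were 2 with only the groups compared (128 of 12964 genes) and 4 with 18 libraries for low-dose ethanol. High-dose ethanol gave 5 with only the groups compared (3140 of 12987 genes). Between extracts at the medium dose DESeq2 gave 3 (2020 of 13550 genes). Averaged over doses, DESeq2 gave 4 (1956 of 13550 genes). The average gave 2 without a filter (863 of 19884 genes), with the replicate block (1161 of 13550) or with only the groups compared (733 of 13513). The cause of these differences was not tested. Leaving out single libraries gave 0 to 1 for low-dose water, and 2 to 3, 2 to 5 and 1 to 4 for ethanol from low to high dose. Over all genes, those fits called 7 to 24 for low-dose water. For ethanol they called 73 to 531, 336 to 6082 and 162 to 376, with 13645 to 13701 genes tested. Between extracts, leaving out single libraries gave 0 to 4 at the medium dose and 2 to 4 averaged over doses, beside 1 to 6005 and 568 to 4929 of all genes. The 5 for medium-dose ethanol and the 4 between extracts at that dose came without medium-dose ethanol replicate 1. There 6082 and 6005 of 13698 genes were called. The averaged count of 4 came without replicate 1 (4929 of 13698 genes) or 2 (1681 of 13645 genes) of that group. Leaving out single libraries gave 0 throughout for medium-dose and high-dose water, for the extracts at the low and high doses, and for the comparisons of doses. Few genes of any kind were called there: 0 to 3 for medium-dose and 1 to 5 for high-dose water. Between extracts these were 0 to 3 at the low and 2 to 5 at the high dose, and 0 to 2 for the comparisons of doses. The number of correlated pairs was 6 by Spearman, on deviations from group means and with a prior count of 0.5, and 8 with 18 libraries. On deviations they were not the same pairs, since Hspa5 with Ddit3 and with Trib3 did not pass. There Trib3 and Asns (r = -0.615) and Ddit3 and Asns (r = -0.588, permutation adjusted p = 0.0192) were negative and under the threshold. The p-values on deviations are too small, as stated above, so the count of 6 on deviations is not established. With 18 libraries r of Ddit3 and Asns was 0.545 (permutation adjusted p = 0.043).

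Outside high against low dose of ethanol extract, no comparison of 2 groups had every same-numbered pair correlated above 0.1. Correlations of same-numbered libraries were -0.169 to 0.249 over all 63 pairs, with a median of 0.00037. Yet 16 of 21 libraries correlated best with one of their own number, so an absence of pairing elsewhere is not shown. Atf3 rested on the fewest counts of the 6 genes, 182 to 518 per library.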
